A study of Mus musculus with 35 samples.

Results

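The second day of GATA6 induction was examined as the change in gene expression between 24 h and 48 h of doxycycline (Dox). All 3 RNA-seq libraries of each time were used, and a gene was tested where its mean reached at least 1 TPM (TPM scale the transcripts of every library to 1 fixed total) at 24 h or at 48 h, which held for 13458 of 44853 genes. The cells of both groups were KH2 mouse ES cells of C57BL/6 x 129/Sv genotype carrying a Dox-inducible gata6 cassette, which encodes GATA6 with an HA tag, in antibiotic-selected clones. Which clone gave which induction library is not stated. Cells were grown with serum and LIF on inactivated embryonic fibroblast feeders and received 1 µg/mL Dox for 24 or 48 h. Feeders were adsorbed on plastic before lysis, and Gata6 values may hold transcripts of the cassette beside those of the cells' own gene. The remaining groups of the series serve here only as other readouts of the same genes. They are 3 libraries each of these cells without Dox (0 h) and at 16, 72, 96 and 168 h of Dox, and 2 libraries of XEN cells, a CD1 extra-embryonic endoderm line cultured without LIF. A further 12 libraries hold inducible cells nucleofected with siRNA as Dox was added and lysed after 48 h, 6 with a pool of non-targeting siRNAs (siCTL) and 6 with a pool directed at Pou5f1, the gene of Oct4 (siOct4).

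Primitive endoderm (PrE) is the extra-embryonic epithelium that separates from the epiblast in the blastocyst, and GATA6 is the transcription factor that specifies it. PrE cells put down a basement membrane of laminin and type IV collagen and give rise to visceral endoderm, which takes up maternal proteins through cubilin and megalin, and to parietal endoderm, which secretes the thick Reichert's membrane. FGF signalling through ERK favours PrE over epiblast, while NANOG and SOX2 maintain the pluripotent state.

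The 6 libraries were alike in size of the detected transcriptome, with 12780 to 13109 genes at or above 1 TPM. Replicate 3 stood apart in both groups. Along the axis that leads from the average of the 0 h libraries (0%) to that of XEN cells, over the log2(TPM + 1) of the genes tested, replicates 1 and 2 lay at 21.3% and 20.6% at 24 h and at 38.3% and 40.1% at 48 h, and replicate 3 at 16.1% and 34.5%. Replicates 1 and 2 were also closer to each other, with a median absolute log2 difference of 0.0944 at 24 h and 0.0939 at 48 h, than either was to replicate 3, with 0.141 to 0.175. TPM keep no read depth, so whether any libraries agree within sampling noise could not be assessed. The p-values of the second day rest on the spread within groups, estimated over all 23 induction libraries and not over these 6 alone. Counts below are therefore also given without replicate 3 of both groups, a comparison added after the data had been seen, where they differ by more than 1.5 times or a call named in the text is lost. For called genes named below, the values are also given where leaving out a single library lost the call. Of named genes that were not called, Foxa2, Hhex, Hspg2, Fgf3, Fgfr3, Lamc1, Snai1, Tfrc and Vim passed when 1 or another library was left out.

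Between 24 h and 48 h, 473 genes rose and 368 fell, which was 3.51% and 2.73% of the genes tested. A gene was said to rise or fall when its limma p-value, adjusted by Benjamini-Hochberg over all genes tested, was under 0.05 and its absolute log2 change, computed on log2(TPM + 1), was above 1. On this scale the changes of weakly expressed genes come out too small. The median change over all genes tested was -0.03. The rises reached further than the falls: 53 of the 473 were above 2 on the log2 scale and 9 of the 368 were below -2. The genes that rose together made up 11766 to 13516 TPM of each library at 24 h and 32974 to 38268 TPM at 48 h. Those that fell went from 13119 to 14770 TPM down to 4821 to 5892 TPM. As the genes were chosen by this change, these sums are a description. Of the 841 called genes, 833 had no overlap between the libraries of 24 h and 48 h; the same was true of 56.1% of all genes tested, whatever their p-value. Without replicate 3 of both groups 513 genes rose, 427 of them among the 473, and 364 fell, 307 of them among the 368. These are bulk samples, in which a change in the share of cells of a type cannot be told apart from a change in RNA per cell. The gene lists read below were drawn up with earlier results of these data known. Some of them hold genes that those results had shown, so list counts and medians are a description and not a test.

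**Figure D1:**
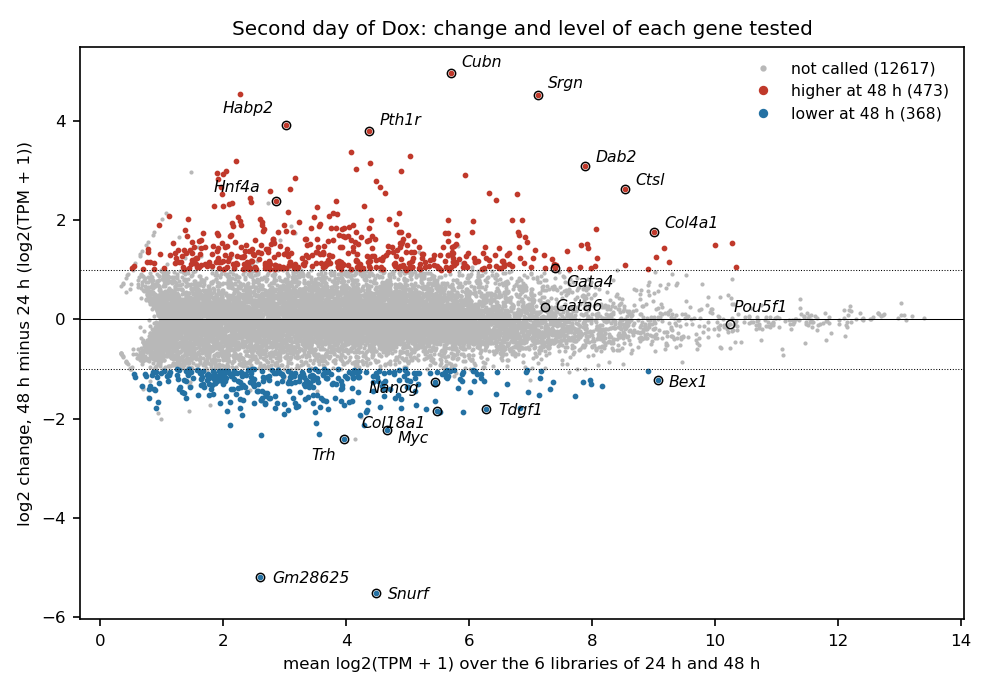
Change from 24 h to 48 h of Dox (vertical axis, log2(TPM + 1)) against mean level over the 6 libraries (horizontal axis, log2(TPM + 1)) for the 13458 genes tested, with the 473 genes that rose in red and the 368 that fell in blue. Dotted lines mark the fold minimum of 1; Cubn lies at 4.97, while Gata6 at 0.25 and Pou5f1 at -0.09 lie near 0, and the lowest points are Snurf and Gm28625, whose values come partly from libraries at 0.

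The largest rise of the second day was that of a receptor for protein uptake, and its partners rose with it. Cubn, which encodes the endocytic receptor cubilin, was at 11, 11.4 and 4.48 TPM in the 3 libraries at 24 h and at 320.2, 354 and 221 TPM at 48 h. The groups were far apart, with replicate 3 lowest in both, and the mean rose 33.3-fold (log2 change 4.97 ± 0.27 (SE); limma adjusted p = 7.16e-10). Lrp2, which encodes megalin, the receptor that carries cubilin into the cell, rose from 28.1, 33.1 and 10.1 TPM to 194, 217 and 111 TPM (2.92 ± 0.31; limma adjusted p = 7.77e-07). Amn, whose product amnionless anchors cubilin in the membrane, rose from 58.3, 62.7 and 36.3 TPM to 208, 231 and 184 TPM (2.0 ± 0.23; limma adjusted p = 2.34e-06). Dab2, the adaptor that links these receptors to clathrin, was already at 101, 108 and 46.7 TPM at 24 h and reached 794, 855 and 489 TPM at 48 h (3.09 ± 0.23; limma adjusted p = 1.43e-08). All 4 genes had separate libraries at the 2 times, and replicate 3 was the lowest library at each time. The receptor chaperone Lrpap1 (1.16 ± 0.11) and the endosomal chloride transporter Clcn5 (1.27 ± 0.14) rose as well, so that 6 of 14 tested genes of endocytic receptors and adaptors rose and 0 fell, with a list median of 0.53. Without 24 h replicate 3 the change of Lrpap1 was 1.0, just under the fold minimum. The transferrin receptor Tfrc (-0.94 ± 0.22) and Lrp1 (-0.69 ± 0.15) were lower by less than the minimum.

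The stretches of 250 bases before the annotated start are shown for Cubn, with the largest rise, for Dab2 and for Hnf4a, the endoderm regulator with the largest rise among the transcription factors listed, because GATA6 is the induced factor and binds DNA at GATA letters. Capitals mark AGATAA or TGATAA on either strand. Sequences are from RefSeq (GRCm38.p6), read 5′ to 3′ on the strand of the gene: chr2:13491877-13492126 (minus strand) for Cubn, chr15:6299539-6299788 (plus) for Dab2 and chr2:163506607-163506856 (plus) for Hnf4a.
Cubn: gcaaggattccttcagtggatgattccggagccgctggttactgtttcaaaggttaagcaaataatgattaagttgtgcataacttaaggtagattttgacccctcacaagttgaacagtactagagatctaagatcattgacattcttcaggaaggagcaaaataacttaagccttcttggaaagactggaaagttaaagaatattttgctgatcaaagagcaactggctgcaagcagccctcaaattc
Dab2: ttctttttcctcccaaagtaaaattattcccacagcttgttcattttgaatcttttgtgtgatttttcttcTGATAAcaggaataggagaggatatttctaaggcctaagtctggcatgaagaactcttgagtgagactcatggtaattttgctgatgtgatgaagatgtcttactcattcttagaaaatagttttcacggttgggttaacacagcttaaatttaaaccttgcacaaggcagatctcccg
Hnf4a: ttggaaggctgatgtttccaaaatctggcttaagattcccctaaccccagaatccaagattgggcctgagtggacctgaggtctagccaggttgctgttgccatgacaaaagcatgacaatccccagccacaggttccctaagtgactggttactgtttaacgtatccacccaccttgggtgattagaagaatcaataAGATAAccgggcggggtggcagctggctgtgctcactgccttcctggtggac
Dab2 held 1 match, starting 179 bases before the start, Hnf4a held 1, at 52 bases, and the stretch of Cubn held 0. Over the 300 bases around the start (250 before, 50 after), AGATAA or TGATAA was found in 10.5% of the 362 risen genes matched to the promoter table by symbol, in 8.95% of the 257 fallen genes and in 9.35% of the 10077 tested genes. Over all promoters of the table the share was 19.0%. Each symbol was read at 1 window, the first listed, also for the stretches shown, so any other annotated start of a gene was not searched. The letters thus stood in near promoters of risen genes about as often as in those of the genes tested, which says nothing of binding there or further away. The POU octamer ATGCAAAT was found in 1.1% of the promoters of risen genes, in 3.5% of those of fallen genes and in 1.47% of those tested, against 1.75% of all promoters. These shares rest on only 4 promoters of risen and 9 of fallen genes. The TATA letters TATAAA stood in 8.56%, 14.4% and 6.87%, against 14.2% of all promoters. Both strands were searched, and matches of different motifs may share bases.

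Of 16 tested markers of visceral and parietal endoderm, 10 rose and 0 fell, and the list median was 1.78. Besides Cubn, Lrp2, Amn and Dab2 these were Pth1r, Nostrin, Ihh, Hesx1, Cited1 and Rhox5. Pth1r, the receptor for parathyroid hormone-related protein and a marker of parietal endoderm, was at 5.25, 5.35 and 3.26 TPM at 24 h and at 85.0, 96.8 and 54.0 TPM at 48 h, a 17-fold rise of the mean (3.81 ± 0.22; limma adjusted p = 1.20e-09). Nostrin, a membrane-trafficking adaptor, rose from 11.1, 10.3 and 7.57 TPM to 77.6, 85.7 and 85.7 TPM (2.99 ± 0.17; limma adjusted p = 7.66e-10). For both genes the libraries of the 2 times were far apart. Ihh, the hedgehog ligand of visceral endoderm, rose from 0.567, 0.598 and 0.446 TPM to 9.83, 9.87 and 7.14 TPM (2.68 ± 0.30; limma adjusted p = 1.33e-06). Hesx1, a homeobox factor of anterior visceral endoderm, rose from 5.45, 3.56 and 4.48 TPM to 23.6, 24.6 and 17.6 TPM (2.06 ± 0.19; limma adjusted p = 1.74e-07). Rhox5, an X-linked homeobox gene expressed in extra-embryonic lineages, was highest in replicate 3 of each time, at 113, 115 and 223 TPM and 374, 374 and 494 TPM (1.52 ± 0.25; limma adjusted p = 9.64e-05). Cited1 changed by 1.56 ± 0.48 (limma adjusted p = 0.0141), and its adjusted p was 0.0590 without 24 h replicate 3 and 0.0520 without 48 h replicate 1. The parietal endoderm genes Thbd (-0.57 ± 0.22), Plat (0.75 ± 0.30) and Snai1 (0.96 ± 0.17) and the activin antagonist Fst (-0.32 ± 0.29) were under the fold minimum. Without replicate 3 of both groups, Snai1 passed, at 1.01.

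The 15 largest rises also held genes of none of the lists above, several of them abundant by 48 h. Srgn, the proteoglycan core protein serglycin, was at 39.2, 40.8 and 13.2 TPM at 24 h and at 686, 754 and 577 TPM at 48 h (4.54 ± 0.31; limma adjusted p = 7.88e-09). Habp2, a secreted serine protease that binds hyaluronan, rose from 1.23, 1.1 and 0.942 TPM to 30.6, 35.3 and 26.1 TPM (3.92 ± 0.22; limma adjusted p = 8.12e-10). Myo6, a motor of endocytic vesicles, rose from 3.99, 3.83 and 5.09 TPM to 57.9, 58.0 and 45.8 TPM (3.37 ± 0.32; limma adjusted p = 2.30e-07). Replicate 3 was the lowest of the 48 h libraries for all 3 genes. Separate libraries at the 2 times were a condition for naming the largest rises. Less abundant at 48 h was S100g, which was at 1.34, 0.527 and 0 TPM at 24 h and at 10.3, 13.6 and 15.6 TPM at 48 h. The others were Nxf7, of the RNA export factor family (3.31 ± 0.19), the calcium-binding S100g (3.20 ± 0.34), the heparan sulphate sulphotransferase Hs3st1 (3.16 ± 0.21), the water channel Aqp8 (3.03 ± 0.46), Clic5 (3.0 ± 0.14), 2810459M11Rik (2.96 ± 0.17) and the hexokinase-like Hkdc1 (2.93 ± 0.38). The pseudogene Rpl7a-ps11 was listed at 0 in all 3 libraries at 24 h and at 28.4, 20.8 and 19.4 TPM at 48 h. Its adjusted p of 0.0294 rose to 0.0568 without the filter on low values and above 0.05 when any 1 library was left out, and its reads can be shared with near-identical copies, so its value is uncertain.

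Among the transcription factors of PrE and endoderm, 5 of 15 tested rose and 0 fell, with a list median of 0.89. The induced factor itself differed by less than the fold minimum. Gata6 was at 143, 145 and 122 TPM at 24 h and at 177, 173 and 140.4 TPM at 48 h (0.25 ± 0.09; limma adjusted p = 0.0245), under the fold minimum and with overlapping libraries. Sox17 was at 111, 105 and 60.6 TPM and then at 135, 167 and 131 TPM (0.68 ± 0.18; limma adjusted p = 0.00590). The factors Sox7 (0.79 ± 0.20), Foxa2 (0.89 ± 0.24) and Hhex (0.99 ± 0.22) passed likewise in p but not in size. Gata4, the close relative of Gata6, rose from 130.4, 135 and 92.2 TPM to 248, 251 and 226 TPM (1.03 ± 0.12; limma adjusted p = 2.20e-06), and Foxq1 rose by 1.19 ± 0.14. Without 24 h replicate 3 these changes were 0.86 and 0.95, under the minimum. Without replicate 3 of both groups they were under it too (0.90 and 0.99), and Hhex passed instead (1.07). Hnf4a, the nuclear receptor that governs visceral endoderm differentiation, was at 3.54, 2.42 and 1.03 TPM at 24 h and at 19.9, 21.9 and 8.64 TPM at 48 h (2.40 ± 0.29; limma adjusted p = 3.19e-06). Its libraries did not overlap, and replicate 3 was the lowest at both times. Tfec, a basic helix-loop-helix factor of the MiT family (2.27 ± 0.36), and the homeobox factor Msx2 (1.32 ± 0.15) also rose.

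**Figure D2:**
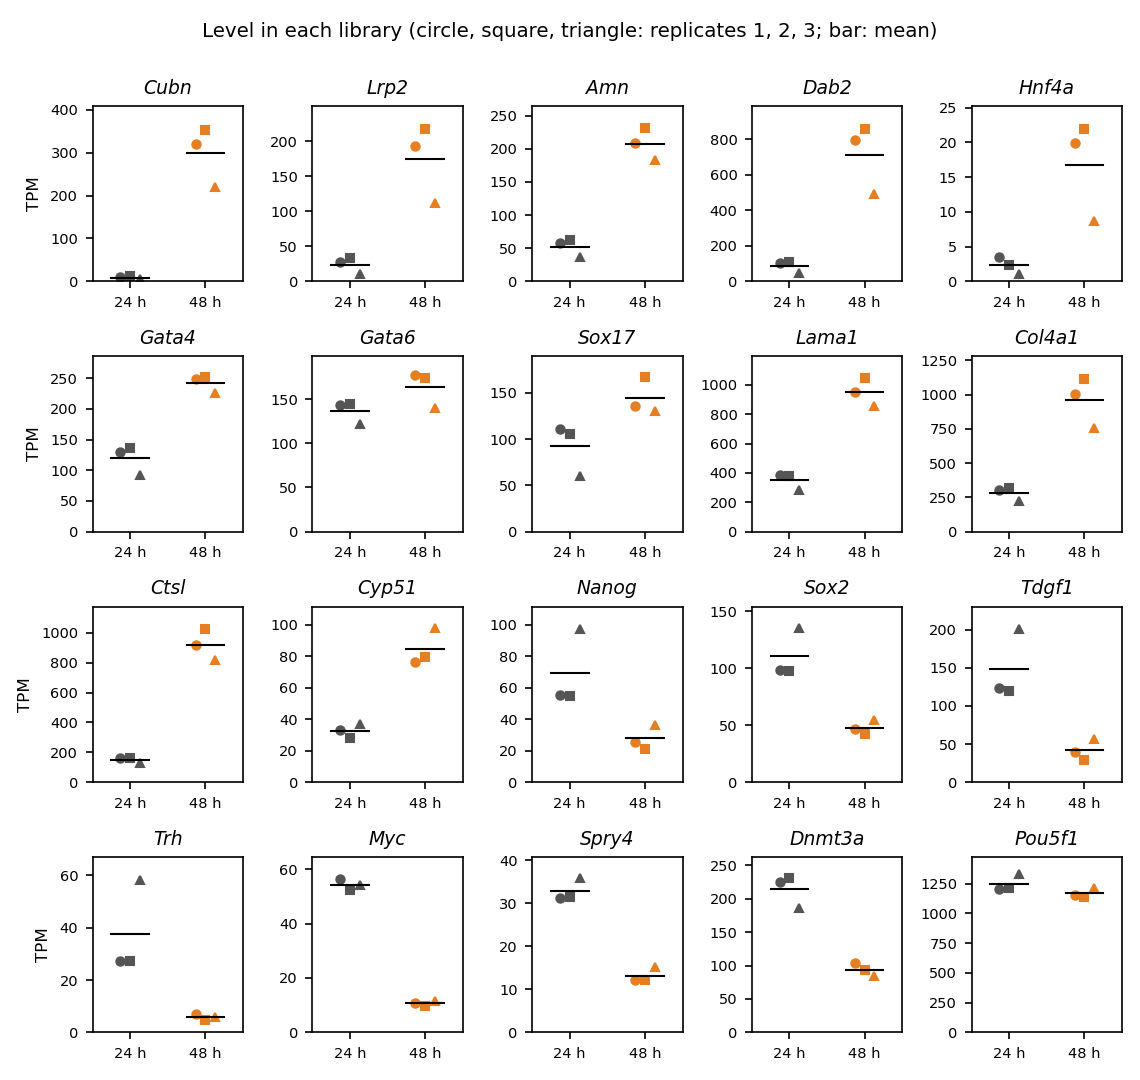
TPM in each library at 24 h (grey) and 48 h (orange) of Dox for 20 genes, each panel with its own axis from 0; circles, squares and triangles are replicates 1, 2 and 3 and bars are means. Cubn, Lrp2, Amn, Dab2, Hnf4a, Lama1, Col4a1, Ctsl and Cyp51 are higher at 48 h in all libraries, the pluripotency, FGF and Dnmt3a panels are lower, Gata6 and Pou5f1 overlap, and replicate 3 is the lowest for Cubn, Lrp2, Dab2 and Hnf4a and the highest for Nanog, Sox2 and Tdgf1 at both times.

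Laminin and collagen IV, the main fabric of the PrE basement membrane, rose from levels that were already high at 24 h. Of 17 tested basement membrane components, 6 rose and 2 fell (list median 0.64). Lama1, the laminin alpha chain, had a mean of 33.7 TPM at 0 h and rose from 385, 379.7 and 287 TPM to 948, 1046 and 853 TPM (1.44 ± 0.13; limma adjusted p = 1.41e-07). Col4a1 rose from 307, 319 and 221 TPM to 1004, 1117 and 759 TPM (1.76 ± 0.13; limma adjusted p = 2.09e-08) and Col4a2, its partner in the collagen IV triple helix, by 1.82 ± 0.17. Lamb1 rose by 1.27 ± 0.13 and the matrix glycoprotein Sparc by 1.51 ± 0.23, while Lamc1, the laminin gamma chain, changed by 0.89 ± 0.11, under the minimum, as did the perlecan gene Hspg2 (1.0 ± 0.10). Lamb2 passed at 1.06 ± 0.22 only through 48 h replicate 2, since its libraries were at 24.5, 55.4 and 22.7 TPM and its change without that library was 0.66. The nidogens, which bridge laminin and collagen IV, did not pass, with Nid1 at 0.20 ± 0.13 (limma adjusted p = 0.230) and Nid2 at 0.31 ± 0.12 (limma adjusted p = 0.0546). Col18a1, a collagen of other basement membranes, fell from 73.9, 79.1 and 98.7 TPM to 21.9, 20.8 and 24.9 TPM (-1.84 ± 0.10; limma adjusted p = 3.96e-10). Fn1 (-0.87 ± 0.19) and Lama5 (-0.71 ± 0.16) were lower by less than the minimum.

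Of 21 tested genes that modify, fold or crosslink collagen, 8 rose, 1 fell and 12 were not called (list median 0.72). The prolyl 4-hydroxylase subunit P4ha2 rose most, from 38.5, 40.4 and 31.4 TPM to 212, 227 and 165 TPM (2.42 ± 0.14; limma adjusted p = 1.30e-09), and P4ha1 rose by 1.44 ± 0.17. The prolyl 3-hydroxylase P3h2 rose from 1.46, 1.34 and 1.11 TPM to 9.63, 11.1 and 6.07 TPM (2.08 ± 0.19; limma adjusted p = 1.30e-07). The lysyl hydroxylase Plod1 (1.33 ± 0.14), the collagen galactosyltransferase Colgalt1 (1.08 ± 0.08), the collagen chaperone Serpinh1 (1.05 ± 0.12), P4hb (1.02 ± 0.10) and P3h1 (1.0 ± 0.09) rose too. The last 3 were close to the fold minimum and lost their call without 24 h replicate 3, at 0.88, 0.94 and 0.96. They were also under it, Serpinh1 by less than 0.01, without 48 h replicate 2 (1.0, 0.94 and 0.94), P4hb and P3h1 without 48 h replicate 1 (0.97 and 0.97) and Serpinh1 without replicate 3 of both groups (0.94). Loxl3, a lysyl oxidase that crosslinks collagen outside the cell, fell (-1.02 ± 0.28), but was under the minimum in 4 of the 6 comparisons with 1 library left out (-0.91 to -0.99).

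Of 22 tested genes of proteolysis 6 rose and 1 fell (list median 0.55), and 5 of the 6 encode lysosomal proteases. Cathepsin L (Ctsl) rose from 158, 164 and 126 TPM to 921, 1023 and 820.5 TPM (2.62 ± 0.16; limma adjusted p = 1.38e-09). Legumain (Lgmn), which processes cathepsins, rose from 46.6, 46.0 and 41.2 TPM to 277, 298 and 219.8 TPM (2.54 ± 0.20; limma adjusted p = 2.44e-08). Cathepsins C (Ctsc, 2.55 ± 0.32), H (Ctsh, 2.60 ± 0.48) and Z (Ctsz, 1.31 ± 0.15) rose, whereas Ctsb (0.79 ± 0.13) and Ctsd (0.71 ± 0.11) passed in p but not in size. The secreted metalloprotease Adamts9 rose by 1.58 ± 0.10. The metalloproteases Mmp2 (-0.34 ± 0.17) and Mmp14 (-0.27 ± 0.08) did not pass both criteria.

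Genes of sterol synthesis were higher at 48 h by small steps. Of 23 tested genes of cholesterol synthesis, uptake and export, 5 rose above the fold minimum and 19 were higher at an adjusted p under 0.05 whatever the size, with 0 lower, beside 2628 higher and 2946 lower at any size among all genes. The list median was 0.71. Cyp51, the lanosterol demethylase, rose from 33.4, 27.9 and 36.9 TPM to 76.2, 79.4 and 97.9 TPM (1.34 ± 0.11; limma adjusted p = 2.91e-08). Sc5d (1.28 ± 0.12), Mvd (1.09 ± 0.10) and Msmo1 (1.03 ± 0.14), which also act in the pathway, and the sterol carrier Stard4 (1.35 ± 0.14) rose, and the regulator Srebf2 was at 0.71 ± 0.12, under the minimum. Msmo1 was under the minimum when 24 h replicate 1, 24 h replicate 2 or 48 h replicate 3 was left out (from 0.98 to 1.0). In the endoplasmic reticulum folding list 2 of 23 tested genes rose, the transmembrane transcription factors Creb3l1 (1.32 ± 0.20) and Creb3l2 (1.26 ± 0.13), and 15 were higher at any size (list median 0.51). Xbp1 changed by 0.80 ± 0.11 and Hspa5 by 0.37 ± 0.14. In glycolysis 2 of 22 rose, Pfkl (1.08 ± 0.15) and the lactate exporter Slc16a3 (1.24 ± 0.40), with a list median of 0.18. The adjusted p of Slc16a3 was 0.0558 without 24 h replicate 1, 0.0605 without 24 h replicate 2 and 0.0530 without replicate 3 of both groups.

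The simple epithelial keratins, which pair into filaments, rose in the pair of Krt8, from 30.2, 35.8 and 34.3 TPM to 65.1, 77.4 and 68.2 TPM (1.05 ± 0.10), and its partner Krt18, from 21.8, 20.8 and 22.0 TPM to 46.5, 49.6 and 41.1 TPM (1.05 ± 0.15). Both are close to the minimum and were under it without 48 h replicate 2 (0.98 and 0.99), Krt8 also without 24 h replicate 1 (0.98). Krt7 (1.16 ± 0.17) rose and Krt42 fell, from 65.9, 63.1 and 105 TPM to 24.7, 19.8 and 26.5 TPM (-1.65 ± 0.20), which makes 3 rises and 1 fall among 5 tested keratins. Of the secreted plasma and lipid carriers of the yolk sac few were expressed: of 18 listed genes 7 were tested, 0 rose and Apoa2 fell (-1.32 ± 0.27), while 11 stayed under the 1 TPM minimum. Apoe was at 855, 902 and 1059.7 TPM and 1462, 1464 and 2086 TPM (0.82 ± 0.33; limma adjusted p = 0.0533). In the retinoid list 3 of 14 rose and 1 fell. Stra6, the receptor for retinol-binding protein, went from 0, 0.0608 and 0.0709 TPM to 1.89, 2.49 and 1.21 TPM (1.43 ± 0.23; limma adjusted p = 6.53e-05). Rdh11, a retinol dehydrogenase, rose by 1.14 ± 0.11 and the retinoic acid hydroxylase Cyp26b1 by 1.05 ± 0.19, while the retinoic acid receptor Rarg fell (-1.18 ± 0.19). The change of Cyp26b1 was 0.98 without 24 h replicate 3, 0.99 without 48 h replicate 3 and 0.92 without both, which left 2 rises and 2 falls in the retinoid list.

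At the fold minimum, falls among pluripotency genes were a minority of those tested. Of 17 tested naive factors 6 fell and 0 rose (list median -0.72), and of 20 general pluripotency and ES genes 7 fell and 0 rose (list median -0.66). At an adjusted p under 0.05 whatever the size, 11 of the 17 and 14 of the 20 were lower and 0 higher. Among all 13458 genes tested, 2946 were lower and 2628 higher at any size. Nanog was at 55.2, 54.7 and 97.5 TPM at 24 h and at 25.7, 21.2 and 36.5 TPM at 48 h (-1.27 ± 0.22; limma adjusted p = 1.32e-04), and replicate 3 was the highest at each time. Sox2, the partner of Oct4, fell from 98.1, 97.4 and 135 TPM to 46.9, 41.9 and 54.2 TPM (-1.18 ± 0.20; limma adjusted p = 1.18e-04). Tdgf1, the Nodal co-receptor Cripto, fell from 123, 119.9 and 201 TPM to 39.8, 29.3 and 56.0 TPM (-1.81 ± 0.31; limma adjusted p = 1.43e-04). Replicate 3 was the highest of the 24 h libraries for all 3 of these genes, and without it the changes were -0.99 for Nanog, just short of the minimum, -1.03 for Sox2 and -1.57 for Tdgf1. Nr0b1 (-1.38 ± 0.24), the orphan receptors Nr5a2 (-1.15 ± 0.19) and Esrrb (-1.06 ± 0.29), Klf2 (-1.15 ± 0.27) and Tfcp2l1 (-1.03 ± 0.27) completed the falls among naive factors. Without 24 h replicate 3 the last 4 were between -0.88 and -0.94, under the minimum, and without both replicates 3 all 6 passed. Esrrb (-0.94) and Tfcp2l1 (-0.88) were under it without 48 h replicate 2 too, and Tfcp2l1 without 48 h replicate 1 (-0.94). The secreted Gdf3 (-1.41 ± 0.10), Fgf4 (-1.17 ± 0.22) and Spp1 (-1.04 ± 0.22; -0.87 without 24 h replicate 3 and -0.90 without 48 h replicate 2) and the zinc finger gene Rex2 (-1.68 ± 0.13) fell as well.

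Pou5f1 itself stayed high, at 1203, 1216 and 1329 TPM in the 24 h libraries and 1151, 1141 and 1217 TPM in the 48 h libraries (-0.09 ± 0.25; limma adjusted p = 0.791), with overlapping libraries. Dppa5a (-0.01 ± 0.16), Klf4 (-0.05 ± 0.18), Klf5 (0.00 ± 0.09), Lin28a (0.01 ± 0.12) and Sall4 (-0.16 ± 0.10) did not pass either. Zfp42 (-0.51 ± 0.09) and Utf1 (-0.90 ± 0.20) passed in p but not in size. In the formative epiblast list 5 of 14 fell and 1 rose. The de novo DNA methyltransferase Dnmt3a fell from 226, 231 and 186 TPM to 103, 94.0 and 83.9 TPM (-1.18 ± 0.15; limma adjusted p = 8.31e-06). With it fell Grhl2 (-1.62 ± 0.15), Foxp1 (-1.54 ± 0.19), Etv1 (-1.07 ± 0.18; -0.93 without 24 h replicate 3 or 48 h replicate 2) and Sox11 (-1.03 ± 0.11). Zic2, a zinc finger factor, rose from 0.963, 0.324 and 0.730 TPM to 3.27, 4.75 and 1.95 TPM (1.34 ± 0.20). Tet1, which oxidises methylcytosine, fell too (-1.23 ± 0.16), which makes 2 of 9 tested DNA methyltransferases and TET enzymes fell, while Dnmt1 (-0.33 ± 0.07) and Dnmt3b (-0.67 ± 0.20) were under the minimum.

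Ligands, feedback inhibitors and target factors of FGF signalling through ERK were among the falls. Of 23 tested genes 8 fell and 2 rose (list median -0.64). Among the feedback inhibitors, Dusp6, the ERK phosphatase, fell from 17.3, 15.1 and 24.1 TPM to 5.64, 4.38 and 7.65 TPM (-1.53 ± 0.18; limma adjusted p = 3.04e-06). Spry4 fell from 31.2, 31.5 and 35.8 TPM to 12.1, 12.1 and 15.2 TPM (-1.26 ± 0.12; limma adjusted p = 2.41e-07), and Spred1 (-1.58 ± 0.12) fell as well. All 3 had separate libraries at the 2 times. Of the target transcription factors, Etv5 (-1.44 ± 0.12) and Fosl1 (-1.47 ± 0.25) fell, and Myc fell 5.06-fold, from 56.2, 52.4 and 54.3 TPM to 10.8, 9.73 and 11.7 TPM (-2.24 ± 0.14; limma adjusted p = 3.14e-09). The ligands Fgf4 and Fgf15 (-1.22 ± 0.17) fell, whereas Fgf3 (0.80 ± 0.19) passed in p only. On the receptor side Fgfr4 rose from 1.39, 1.48 and 1.01 TPM to 5.30, 6.94 and 3.79 TPM (1.44 ± 0.17; limma adjusted p = 1.90e-06). Fgfr3 (0.94 ± 0.22) and Fgfr1 (-0.72 ± 0.15) were under the minimum in opposite directions, and Fgfr2 did not pass (-0.09 ± 0.21; limma adjusted p = 0.745). Fos rose by 1.09 ± 0.38 (limma adjusted p = 0.0272), a call lost without 48 h replicate 3 (adjusted p = 0.0997) and without 24 h replicate 1, 24 h replicate 2 or 48 h replicate 2.

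In the Nodal pathway 6 of 19 tested genes fell and 1 rose (list median -0.48). The ligand Nodal fell from 17.6, 16.3 and 18.0 TPM to 7.5, 6.48 and 9.59 TPM (-1.06 ± 0.17; limma adjusted p = 9.26e-05), and its change without 48 h replicate 2 was -0.95, under the minimum. Its inhibitor Lefty1 (-1.13 ± 0.38), the activin subunits Inhba (-1.49 ± 0.36) and Inhbb (-1.22 ± 0.20), Gdf3 and Tdgf1 fell. The adjusted p of Lefty1 was 0.0229, 0.0604 without the filter on low values and 0.104 without replicate 3 of both groups. It was also above 0.05 without 24 h replicate 1 (0.0720), 24 h replicate 3 (0.0548), 48 h replicate 2 (0.0789) or 48 h replicate 3 (0.0556). Without replicate 3 of both groups 5 genes of the pathway fell and 2 rose. For BMP signalling 2 of 18 rose and 0 fell. These were the ligand Bmp2, from 0.861, 0.902 and 0.699 TPM to 9.03, 9.70 and 5.50 TPM (2.29 ± 0.19; limma adjusted p = 4.46e-08), and the extracellular modulator Bmper, from 7.16, 6.86 and 2.89 TPM to 38.1, 41.4 and 20.3 TPM (2.38 ± 0.29; limma adjusted p = 3.18e-06). The ID targets were not called, with Id1 at -0.26 ± 0.30, Id2 at -0.15 ± 0.23 and Id3 at -0.69 ± 0.18.

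The largest falls by the naming rule held few genes of the lists. Trh, which encodes thyrotropin-releasing hormone and stands in the list of ES genes, fell from 27.4, 27.4 and 58.2 TPM to 7.06, 4.71 and 5.77 TPM (-2.42 ± 0.24; limma adjusted p = 3.77e-07). The cationic amino acid transporter Slc7a3 fell from 35.4, 36.3 and 48.8 TPM to 8.44, 7.54 and 9.21 TPM (-2.12 ± 0.13; limma adjusted p = 2.69e-09). Enox1 (-2.13 ± 0.14), the phospholipase Pla2g1b (-2.09 ± 0.20), the noncoding RNA Halr1 (-2.33 ± 0.31), Gm19705 (-1.93 ± 0.29), Vwa3b (-1.92 ± 0.23), the ubiquitin hydrolase Uchl1 (-1.87 ± 0.37) and the tubulin Tubb3 (-1.87 ± 0.33) followed. C2cd4a was at 35.4, 36.1 and 12.7 TPM at 24 h and at 7.15, 5.02 and 2.03 TPM at 48 h (-2.32 ± 0.36; limma adjusted p = 4.78e-05). The zinc finger genes Zfp534 (-1.92 ± 0.13) and Zfp989 (-1.87 ± 0.25), members of a family of close paralogs that may share reads, also stood here. The values of 2 further genes rest on zeros. Snurf, which shares its transcript with Snrpn, was at 128, 168 and 158 TPM at 24 h and at 0, 0 and 34.8 TPM at 48 h (-5.52 ± 1.53). Gm28625 was at 26.2, 67.1 and 25.3 TPM and listed at 0 in all 3 libraries at 48 h (-5.19 ± 1.17). Both changes are uncertain, since the assignment of reads among overlapping or similar genes can give such zeros.

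Several lists held few calls. Without replicate 3 of both groups the LIF and STAT3 list had 2 rises, the integrin list 2 falls, the cadherin and EMT list 2 rises and the WNT list 1 fall, in place of the 1, 1, 1 and 2 given here. In the integrated stress response 3 of 16 fell, Psat1 (-1.53 ± 0.19), Slc7a5 (-1.06 ± 0.12) and Chac1 (-1.08 ± 0.27), and Atf3 rose (1.63 ± 0.16); without replicate 3 of both groups 6 fell. Chac1 was at -0.89 without 48 h replicate 2. Of 23 tested cell cycle genes only Ccnd1 was called, falling from 69.9, 65.0 and 68.1 TPM to 29.8, 27.9 and 23.1 TPM (-1.30 ± 0.33), and Mki67 was at 0.37 ± 0.07. In the BCL2 family Bcl2l11, the pro-apoptotic BIM, fell (-1.05 ± 0.14; -0.95 without 48 h replicate 2) and 13 of 14 tested genes were not called. Among WNT genes Fzd5 (-1.18 ± 0.17) and Cdx1 (-1.01 ± 0.33) fell, 2 of 18, the latter with an adjusted p of 0.0188 that was 0.0570 without 24 h replicate 2, 0.0614 without 24 h replicate 3, 0.0565 without 48 h replicate 2 and 0.0923 without replicate 3 of both groups. Socs1 rose in the LIF and STAT3 list, 1 of 15 (1.30 ± 0.23), and Pdgfc fell in the PDGF and AKT list, 1 of 15 (-1.21 ± 0.13). For adhesion, the integrin Itga6 fell from 145, 146 and 171 TPM to 60.8, 54.6 and 71.8 TPM (-1.30 ± 0.16) and Parva rose (1.05 ± 0.14) among 18 tested. N-cadherin (Cdh2, -1.55 ± 0.22) and Zeb1 (-1.05 ± 0.20) fell and Cdh5 rose (1.17 ± 0.30) among 22, while E-cadherin (Cdh1) was at -0.21 ± 0.13 (limma adjusted p = 0.202). Zeb1 was at -0.82 without 24 h replicate 1 and Parva at 0.98 without 48 h replicate 1 and 0.99 without 48 h replicate 2.

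**Figure D3:**
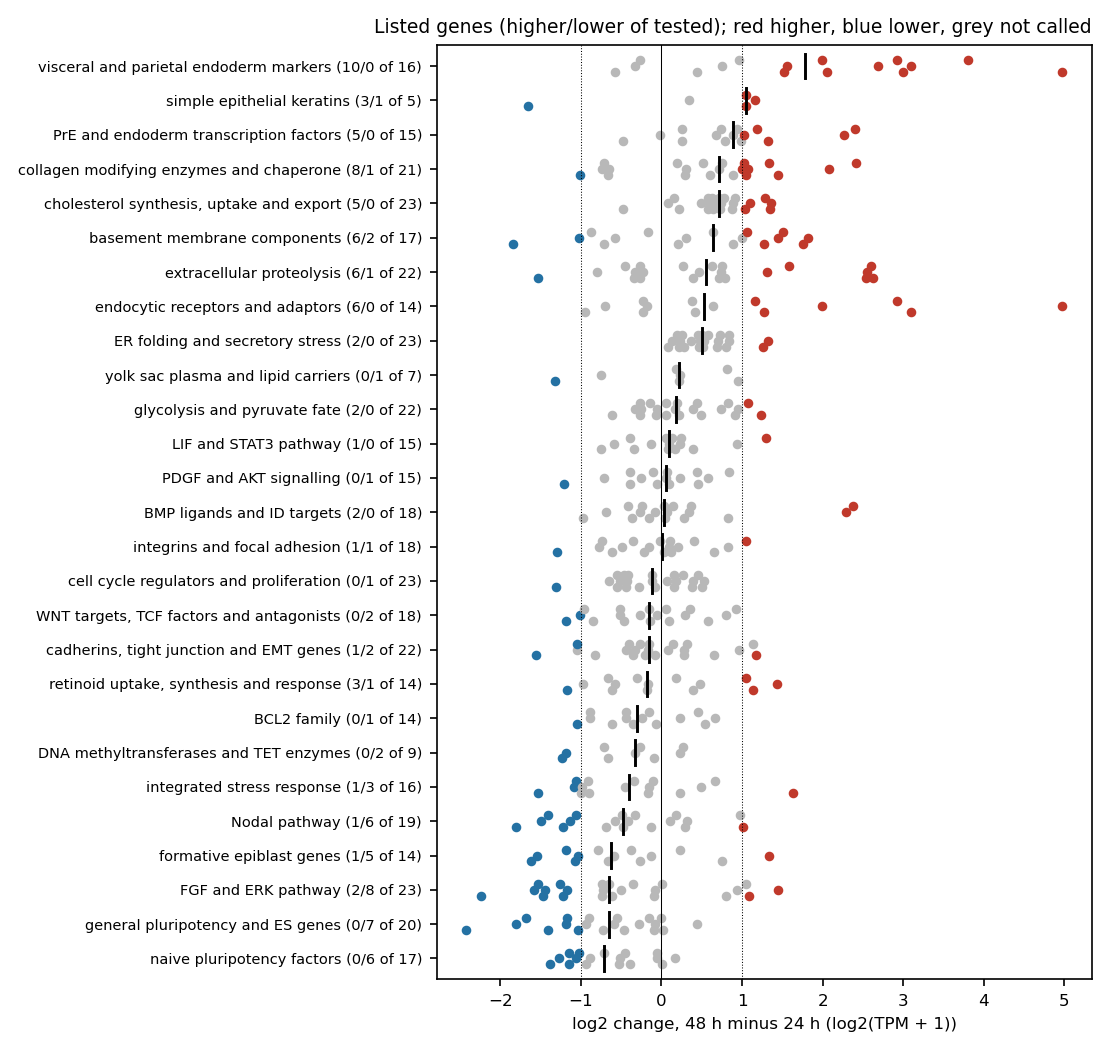
Log2 change from 24 h to 48 h of Dox, on log2(TPM + 1), of each tested gene (points) of the 27 gene lists, ordered by list median (black bars), with the numbers higher and lower of those tested beside each name; dotted lines mark a change of 1. Visceral and parietal endoderm markers are at the top with 10 of 16 higher and 0 lower, and naive factors at the bottom with 6 of 17 lower and 0 higher. The lists were drawn up with earlier results of these data known, so their order is a description.

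Markers of other cell types were read beside these results. ES markers summed to 6901 to 8009 TPM at 24 h and 6371 to 7800 TPM at 48 h, mainly Dppa5a and Pou5f1, and 5 of 8 fell. PrE markers went from 942 to 1350 TPM to 2779 to 3826 TPM and 4 of 8 rose, or 3 of 8 without replicate 3 of both groups. Feeder fibroblast markers summed to 129 to 182 TPM and 92.4 to 126 TPM. Of 12 tested Col5a2 fell (-1.08 ± 0.39), a call lost without 24 h replicate 1, 24 h replicate 2, 48 h replicate 2 or 48 h replicate 3. Vim, a mesenchymal filament that feeders express, was at 416, 378 and 144 TPM and 187, 149.6 and 89.9 TPM (-1.05 ± 0.54; limma adjusted p = 0.133). It was lower in all 3 same-numbered pairs, and its adjusted p was 0.00360 with the replicate block and 0.0440 without 24 h replicate 3 (-1.54), both of which would make it a fall. Of 8 tested trophectoderm markers 3 rose. Besides Krt7 these were Hand1, from 0.912, 1.71 and 1.76 TPM to 6.55, 7.63 and 6.54 TPM (1.70 ± 0.25), and Eomes, from 3.90, 3.77 and 2.92 TPM to 8.40, 9.37 and 7.0 TPM (1.03 ± 0.17), the last under the minimum without 24 h replicate 3 (0.93) or 48 h replicate 2 (0.94). Cdx2, a defining trophectoderm factor, was at 0.679, 0.304 and 0.334 TPM at 24 h and at 0.965, 1.31 and 0.772 TPM at 48 h, separate but low (0.49 ± 0.12; limma adjusted p = 0.00369), and passed the fold minimum at a pseudocount of 0.1 (1.09). Eomes is also a mesoderm marker, and of 2 mesoderm markers tested it was the 1 that rose. Trh is also a definitive endoderm marker, the 1 fall of 2 tested. Of 2 neurectoderm markers tested 0 rose and 0 fell, and of the 2-cell-like markers 0 were tested. The part of other cell types in the results was not tested.

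The genes that changed in the second day were then read in comparisons that share no library with it. Each comparison tests a gene only where at least 1 of its 2 groups averages 1 TPM or more. A gene under 1 TPM in the first group thus enters only if the second group reaches that level. The shares below hold for the genes tested and depend on this filter. From 0 h to 16 h, 53 of the 391 risen genes that could be tested had risen (13.6%), against 2.2% of all genes tested, and 2 had fallen, Slc38a5 and Zic2, against 0.896%. Cubn (1.09), Dab2 (2.66) and Gata4 (5.29) were among the early rises, while Pth1r was at 0.11 (limma adjusted p = 0.815). Of 364 fallen genes 27 had fallen by 16 h (7.42%), among them Nanog (-1.54), Sox2 (-1.16) and Trh (-2.32), and 21 had risen (5.77%). Dnmt3a was one of the latter: its mean went from 32.4 TPM at 0 h to 234 TPM at 16 h (log2 change 2.84 ± 0.16; limma adjusted p = 9.91e-11), then fell in the second day. C2cd4a (4.72) and Cdh2 (1.5) also had a rise before the fall.

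From 72 h to 168 h, 82 of 472 risen genes rose further (17.4%) and 82 fell (17.4%), against 7.85% and 5.67% of all genes tested, and after median-of-ratios rescaling 71 rose and 87 fell. Those that rose further included Lama1 (1.19), Col4a1 (1.86), Sparc (1.56), Pth1r (1.43), Stra6 (2.99), Adamts9 (2.90) and Aqp8 (1.21). Of 18 visceral and parietal endoderm markers tested there 8 rose and 3 fell (list median 0.49), and of 15 endoderm transcription factors 3 rose and 3 fell. Those of the second-day rises that fell later included Hnf4a (-1.30), Amn (-1.41), Nostrin (-1.13) and Hesx1 (-3.20), the sterol genes Cyp51 (-1.1), Mvd (-1.63) and Msmo1 (-1.19), the keratin Krt7 (-1.53) and Rhox6 (-3.02) and Rhox9 (-2.99). Hesx1, for example, had a mean of 21.9 ± 3.81 TPM (SD, n = 3) at 48 h, of 24.7 TPM at 72 h and of 1.84 TPM by 168 h. The sterol gene Cyp51 had its highest mean at 48 h, with 84.5 ± 11.7 TPM, against 32.7 TPM at 24 h and 49.2 TPM at 72 h, and so did Mvd, with 39.8 ± 3.80 TPM against 18.1 TPM and 21.2 TPM. Of 275 fallen genes tested there, 91 fell further (33.1%) and 33 rose (12%), the latter with Dusp6 (1.49) and Rarg (1.41). The rest of the 368 fallen genes averaged under 1 TPM at both 72 h and 168 h and were not counted.

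XEN cells were compared with 0 h cells. Of 430 risen genes tested there, 306 were higher in XEN cells (71.2%) and 30 lower (6.98%), against 20.2% and 20.0% of all genes tested. The rest of the 473 risen genes averaged under 1 TPM both at 0 h and in XEN cells and are not in these shares. Of 355 fallen genes, 282 were lower (79.4%) and 21 higher (5.92%). The risen genes that were lower in XEN cells than in ES cells without Dox included Amn (-1.59), Rhox5 (-2.84), Rhox9 (-3.87), Hesx1 (-2.15), Myo7a (-3.06) and Eomes (-1.34). Amn was at 208 ± 23.5 TPM (SD, n = 3) in the 48 h group and at 0.410 ± 0.207 TPM (SD, n = 2) in XEN cells, and Nostrin at 83.0 ± 4.68 TPM and 0.460 ± 0.0642 TPM. By group means, which are given as a description, 255 of the 473 risen genes were already higher at 48 h than in XEN cells, and 135 were lower at 168 h than at 48 h. Their highest mean was at 168 h for 199 genes, at 72 h for 129, at 96 h for 72, in XEN cells for 40 and at 48 h for 33. Of the 368 fallen genes, 217 had their highest mean at 0 h, 75 at 16 h and 40 at 24 h.

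**Figure D4:**
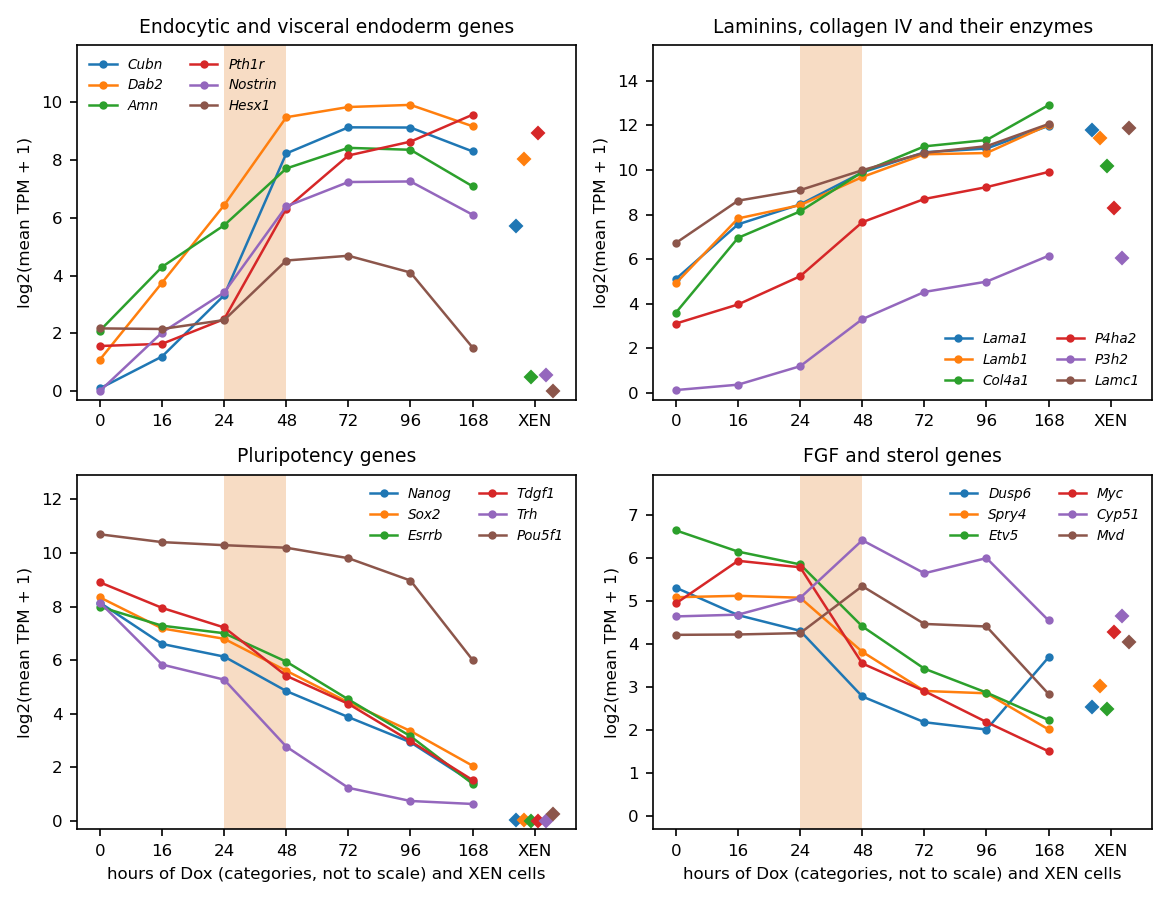
Group means as log2(mean TPM + 1) over hours of Dox (0 to 168, as equally spaced categories) and in XEN cells (diamonds), with the step from 24 h to 48 h shaded, for 6 genes in each panel. Cubn rises most steeply in the shaded step, laminins and collagen IV go on rising to 168 h, Hesx1, Amn, Cyp51 and Mvd decline by 168 h, and Pou5f1 stays level through the step and drops later.

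The siRNA libraries gave another readout of the same genes at 48 h of Dox, when Pou5f1 was at 782 to 1194 TPM (median 895) in siCTL and 282 to 387 TPM (median 314) in siOct4 libraries (log2 difference -1.52 ± 0.14; limma adjusted p = 5.21e-05). Gata6 differed by -0.50 ± 0.22 (limma adjusted p = 0.326, 0.0503 when replicate number was blocked). This value may hold transcripts of the cassette and does not read the cells' own gene alone. From the 5′ UTR, which the cassette lacks, the paper reports lower endogenous Gata6 after Oct4 knock-down. The siRNA table holds only genes that the authors had called responsive to GATA6, a choice that drew on the 24 h and 48 h libraries. Genes were called there at an adjusted p under 0.05 and an absolute difference above 0.5. Of the 459 risen genes tested there, 54 were lower with siOct4 (11.8%) and 9 higher (1.96%), against 1.72% and 0.942% of the genes tested. These 54 stood among 108 genes lower with siOct4 in all. After median-of-ratios rescaling, which moved the median of all genes tested from -0.12 to 0.01, 67 of the 459 were lower (14.6%) and 17 higher (3.7%), against 2.45% and 2.3% of the genes tested. Same-numbered siRNA libraries deviated together, and in the fit blocked by number 134 of the 459 were lower (29.2%) and 19 higher (4.14%), against 6.15% and 2.43% of the genes tested. Of the 256 fallen genes 5 were lower and 4 higher, 28 and 7 with the block and 5 and 8 after rescaling. The median difference was -0.36 for risen genes, -0.12 for fallen genes and -0.12 for all genes tested, and after rescaling -0.22, 0.00 and 0.01.

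Cubn, the gene with the largest rise of the second day, ranged over 122 to 649.8 TPM (median 337) in siCTL and 18.2 to 126 TPM (median 56.3) in siOct4 libraries, a difference of -2.55 ± 0.46 (limma adjusted p = 0.00641; with the block 4.58e-04). It was lower in all 6 same-numbered pairs, although the highest siOct4 library was above the lowest siCTL library. Nostrin was at 78.4 to 195 TPM (median 125) and 14.9 to 49.3 TPM (median 29.4) (-2.11 ± 0.32; limma adjusted p = 0.00192). Myo7a, a myosin of apical membranes, was at 31.6 to 81.2 TPM (median 42.4) and 5.38 to 15.2 TPM (median 10.9) (-2.02 ± 0.27; limma adjusted p = 0.00142), and Ramp2, a receptor-modifying protein, was at 15.0 to 43.5 TPM (median 19.2) and 2.29 to 6.67 TPM (median 5.48) (-1.98 ± 0.29; limma adjusted p = 0.00188). Each of these 3 had ranges that did not overlap and was lower in 6 of 6 pairs. Like Cubn, they were named for the size of their siOct4 difference, so ranges and pairs are a description. Srgn (-1.31 ± 0.19), Amn (-1.43 ± 0.30), Hesx1 (-1.88 ± 0.29), Clic5 (-1.86 ± 0.29), Habp2 (-1.18 ± 0.28), Ctsc (-1.32 ± 0.29) and Ctsl (-0.81 ± 0.15) were lower too. Dab2 (-0.95 ± 0.28) had an adjusted p of 0.0962 without and 0.0114 with the block, Hnf4a (-1.23 ± 0.33) 0.0687 and 0.0106, and Lrp2 (-0.71 ± 0.37) 0.429 and 0.162. A difference of Pth1r was not detected, at 53.0 to 154 TPM (median 59.5) and 25.2 to 125 TPM (median 90.2) (-0.09 ± 0.37; limma adjusted p = 0.945, 0.846 with the block). Nor was one detected for Lama1 (-0.33 ± 0.20; limma adjusted p = 0.536) or Col4a1 (-0.02 ± 0.28; limma adjusted p = 0.984).

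Of the 9 risen genes that were higher with siOct4, S100g was at 4.06 to 23.7 TPM (median 7.37) in siCTL and 44.8 to 209 TPM (median 67.1) in siOct4 libraries (3.15 ± 0.42; limma adjusted p = 0.00151). The X-linked homeobox genes Rhox6 (2.36 ± 0.37; limma adjusted p = 0.00240) and Rhox9 (2.24 ± 0.34; limma adjusted p = 0.00192), close copies of each other whose reads may be shared, were higher in 6 of 6 pairs. Krt18 was at 51.8 to 84.5 TPM (median 71.0) and 214 to 534 TPM (median 281) (2.20 ± 0.24; limma adjusted p = 2.97e-04) and likewise higher in 6 of 6 pairs. The partner of Krt18, Krt8, was higher too (1.71 ± 0.22; limma adjusted p = 0.00142). S100g, Rhox6, Rhox9 and Krt18 were named for the size of this difference, so their pairs are a description. The remaining genes of the 9 were Dkkl1, Hkdc1, Plac1 and Sct. Of the risen trophectoderm markers, Hand1 (1.54 ± 0.35) and Krt7 (1.62 ± 0.18) passed only with the block, at adjusted p values of 0.0233 and 3.40e-04 against 0.164 and 0.102 without it.

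Among the genes that fell in the second day, Bex1 was higher with siOct4, at 286 to 397 TPM (median 364) in siCTL and 777 to 1176 TPM (median 999) in siOct4 libraries (1.46 ± 0.12; limma adjusted p = 3.71e-05), with no overlap. Bex1 too was named for the size of this difference. Fgfbp1, a carrier of FGF ligands, was higher as well (1.70 ± 0.39; limma adjusted p = 0.0301), as were Tubb3 (0.93 ± 0.23; limma adjusted p = 0.0476) and Tubb2b. Gdf3, at 9.86 to 19.5 TPM (median 18.5) and 3.62 to 11.7 TPM (median 5.29) (-1.19 ± 0.29; limma adjusted p = 0.0444), and Spp1 (-1.08 ± 0.27; limma adjusted p = 0.0441) were lower. So were the paralogous zinc finger genes Zfp534 (-0.91 ± 0.22), Zfp987 (-0.89 ± 0.20) and Zfp988 (-0.82 ± 0.19). The calls of those last 3 were lost after median-of-ratios rescaling, with adjusted p values of 0.0602, 0.0630 and 0.0788, and that of Tubb3 at a pseudocount of 0.1, with 0.0520. Nanog (0.09 ± 0.63; limma adjusted p = 0.969) and Sox2 (-0.41 ± 0.65; limma adjusted p = 0.844) did not pass.

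**Figure D5:**
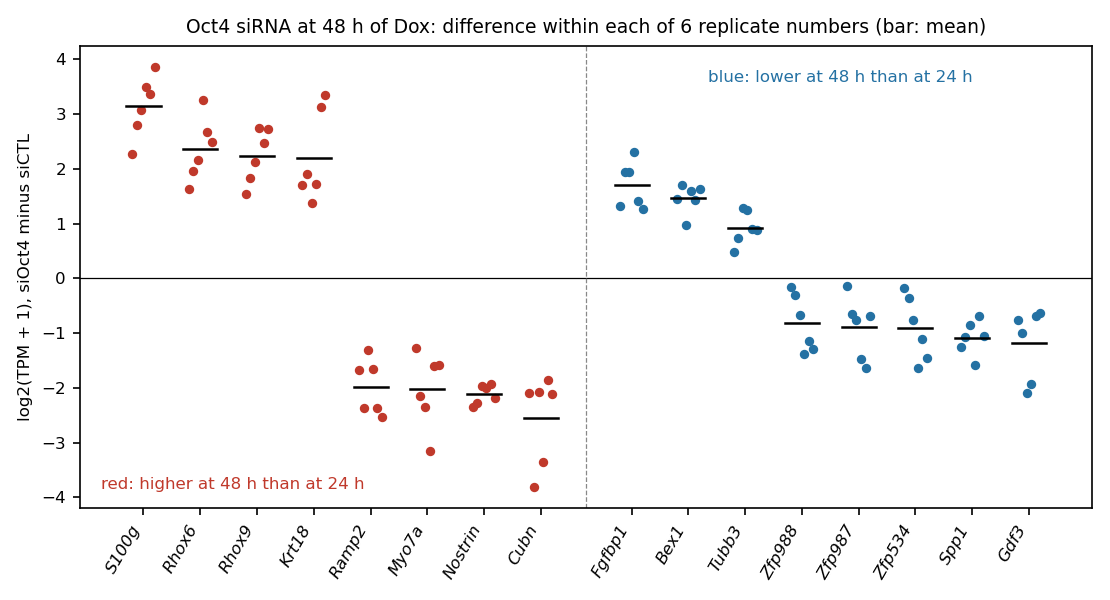
Difference in log2(TPM + 1) between siOct4 and siCTL libraries of the same number (6 points per gene, bars are means) for the 8 risen (red) and 8 fallen (blue) genes of the second day with the largest siOct4 differences among those called. S100g, Rhox6, Rhox9 and Krt18 are above 0 in all 6 pairs and Ramp2, Myo7a, Nostrin and Cubn below 0 in all 6, and in the fallen genes 3 are above and 5 below 0.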

How the data were processed

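RNA was sequenced as stranded poly(A) libraries. The authors demultiplexed, trimmed, aligned and quantified the reads (per the submitters' processing notes bcl2fastq, cutadapt, STAR and RSEM, build mm10; versions and annotation are not given in the sources used here) and deposited TPM per gene, without counts, so depth is unknown and intervals for counting error cannot be given. The deposited siRNA table holds TPM only for the 6275 genes that the authors classed as responsive to GATA6; its mean columns and its text classes from the authors' own comparisons were not used.

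Of 44915 rows, 60 symbols stood on several, of which that with the highest mean was kept (44853 genes). Changes were fitted with limma 3.58.1 (R 4.3.3) on log2(TPM + 1), with a trended, robust prior, over all 23 induction libraries with 1 coefficient per group, or over the 12 siRNA libraries. All groups of a table thus share 1 estimate of the spread, so an SE can exceed the spread within the 6 libraries compared. Genes were tested where either group averaged 1 TPM or more, p-values were adjusted by Benjamini-Hochberg over them, and calls required an adjusted p under 0.05 and an absolute log2 change above 1 (siRNA: 0.5). On data simulated for the 13458 genes of the change from 24 h to 48 h, 91% of genes changed by 1.5 and 97% of those changed by 2 (log2) were recovered, with 0 false calls. The simulated noise was normal and independent between libraries, without the shared position of replicate 3. Unchanged genes had equal means and a call needs a change above 1, so few false calls could arise. The simulation does not cover changes close to the minimum. Levels, lists and promoters were tabulated with Python 3.11.15, numpy 2.4.6, pandas 2.3.3 and scipy 1.17.1.

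Genes and lists were chosen with earlier results of these data known, and some lists hold genes that those results had shown. Named genes are members of 27 pathway lists and 8 marker lists (545 genes, 462 tested), the 15 largest rises and 15 largest falls with separate libraries and a mean of at least 5 TPM in the higher group, and the 8 risen and 8 fallen genes with the largest called siOct4 difference. Slc38a5, Dkkl1, Plac1, Sct, Tubb2b, Zfp987 and Zfp988 were named after their values were seen, to complete small counts. The labels number the replicates. In the siRNA table same-numbered libraries deviated together (r 0.236 to 0.707 in 6 pairs, mean 0.328, against a mean of -0.064 for other pairs). The main siRNA calls and p-values nevertheless come from the fit without a term for the number. The fit blocked by number is given beside it, and differences within pairs go by the number. A few listed genes are counted but not reported here by name. Alternatives were another pseudocount, filter, threshold, rescaling, group set, the replicate block and leaving out each library.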

Additional observations from a re-analysis of the deposited data

Results flagged for a closer look

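Of the genes named for their siOct4 difference, 32 groups of 6 libraries were screened for a library set apart from the other 5 by Dixon's criterion, which chance meets in about 1 group in 20, or 1.6 of 32. It was met in 3. Rhox6 in siCTL replicate 4 was at 3.72 on the log2(TPM + 1) scale, where the other siCTL libraries lay between 5.20 and 6.00. Bex1 was at 8.17 in the same library, with the others between 8.49 and 8.64. Ramp2 in siOct4 replicate 2 was at 1.72, with the others between 2.65 and 2.94. The induction groups hold 3 libraries or fewer and were not screened.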

How the results depend on the processing

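No named gene changed sign with its call under an alternative run, but medians near 0 and balances did. Median-of-ratios rescaling moved the median of all genes from 0.02 to -0.01 for 0 h to 16 h, from 0.09 to -0.01 for 72 h to 168 h, and from -0.12 to 0.01 for siOct4, and that of the fallen genes for siOct4 from -0.12 to 0.00. Without the fold minimum falls outnumbered rises in the second day, with 2628 genes higher and 2946 lower, and counts were 1194 and 784 from 0 h to 16 h, 4396 and 2982 from 72 h to 168 h, and 5227 and 5325 between XEN and 0 h cells. A pseudocount of 0.1 gave 646 falls in the second day, and a mean of at least 5 TPM gave 1854 genes lower in XEN cells. For siOct4, an adjusted p under 0.01 left 28 genes higher and 33 lower, median-of-ratios rescaling gave 144 higher (48.5% of calls against 35.3%), and the replicate block 152 higher and 385 lower. Leaving out each library in turn gave 442 to 549 rises and 331 to 408 falls in the second day, 271 to 312 and 97 to 153 from 0 h to 16 h, 1004 to 1151 and 720 to 956 from 72 h to 168 h, and 2821 to 2867 genes higher and 2787 to 2923 lower in XEN cells. In the second day the replicate block gave 473 rises and 373 falls. Same-numbered libraries of 24 h and 48 h correlated in their deviations at 0.0674 to 0.163 (mean 0.109), against a mean of -0.054 for other pairs. As 5 of 6 libraries correlated best with their own number, the numbers may mark pairs. The correlations were weak and not above 0.1 in every pair, and the main fit has no term for the number. Among 494 genes named by rule and tested, called or not, calls in the second day lost their size or p for 8 to 21 genes when 1 library was left out, most without 48 h replicate 2, and for 8 without replicate 3 of both groups (chosen after seeing the data). Over all genes, leaving out 1 library kept 403 to 451 of the 473 rises and 297 to 334 of the 368 falls. Fewest of both were kept without 24 h replicate 3. TPM without counts limit how low values can be read.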

Other observations

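Zinc finger genes of the Zfp series were unevenly spread, a pattern chosen after its values were seen. Of the 368 genes that fell from 24 h to 48 h, 20 had a numbered Zfp symbol (5.43%), against 354 of the 13458 genes tested (2.63%) and 0 of the 473 that rose. Several of the 20 are close paralogs that may share reads, so they are not independent.

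ESRRB letters (AAGGTCA) stood in 3.04% of the 362 promoter windows of risen genes, 4.67% of the 257 of fallen genes and 3.17% of those of all tested genes, SOX letters (ATTGTT) in 5.80%, 8.56% and 5.57%, and sterol response letters (TCACNCCAC) in 1.38%, 1.56% and 1.08%. Over all promoters of the table these shares were 4.66%, 10.9% and 1.22%. Counts were small, with ESRRB letters in 11 windows of risen and 12 of fallen genes, and sterol response letters in 5 and 4.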
